A study of Mus musculus with 3 samples.

Results

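The genes described here encode 10 RNA-binding proteins of neurons and their precursors: Elavl2, Elavl3, Elavl4, Msi1, Msi2, Nova1, Ptbp1, Ptbp2, Celf4 and Srrm4. They were taken by name, and each was read from every one of its probe sets, 35 in all, out of 45101 probe sets and 18193 named genes on the array. Male and female pups of the Tgn1-2G transgenic line, aged postnatal days 5 to 8, gave the olfactory epithelium, whose cells were sorted by the brightness of green fluorescent protein (GFP). The GFP+++ fraction (1000000 strongly fluorescent cells) is described by the submitters as rich in immature olfactory sensory neurons (OSN). The GFP+ fraction (1300000 weakly fluorescent cells) is described as slightly rich in mature ones, and the GFP- fraction (6800000 cells) as holding every cell type with fewer immature neurons. All fractions carry the transgene, which other work describes as GFP driven by control elements of the proneural gene Neurog1, so fluorescence marks a lineage and its recent descendants and not a single cell type. The label number of 32 for each fraction is read here as pooled mice. Each fraction was hybridised to 1 array, so no value below has a replicate error, no test was possible, and every fold describes these arrays alone.

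RNA-binding proteins of this kind set which exons a neuron keeps and how long its messages last. The ELAV-like proteins bind U-rich stretches and steady neuronal transcripts, the Musashi proteins restrain translation in progenitors, and Nova, Celf and Srrm4 proteins steer neuronal exon choice. Ptbp1 represses neuronal exons in progenitors and non-neuronal cells, among them an exon that Ptbp2 needs for a stable transcript, and its decline in newly formed neurons lets Ptbp2 take over; this exchange is known as the Ptbp switch. Signals are MAS5 values on a linear scale, and a pooled median signal of 104 served as a floor below which no fold is given.

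Of the 35 probe sets, 27 lay above the floor on all arrays and 8 lay under it on all arrays. Both probe sets of Nova1, a regulator of neuronal exons, lay under it, the brighter one at 51.2 in GFP+++, 76.4 in GFP+ and 103 in GFP-. Nova1 therefore has no fold (a floor at the 35th percentile puts it past 2-fold lower in GFP+++ than in GFP-), and 9 of the 10 genes could be compared. A gene is represented by its brightest probe set, and since probe sets differ in binding, signals are not set against each other between genes.

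**Figure D1:**
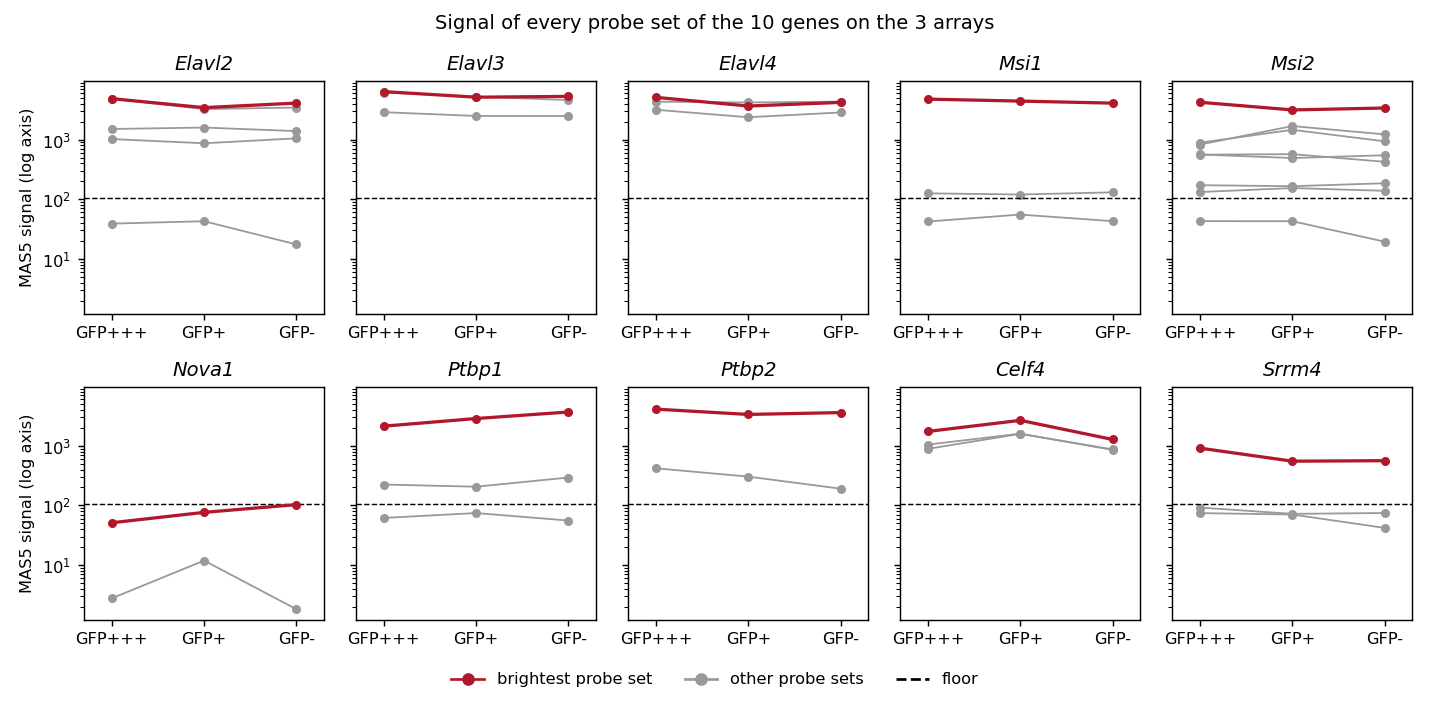
Signal of every probe set of the 10 genes (log axis) on the GFP+++, GFP+ and GFP- arrays. Red marks the brightest probe set of a gene, grey the others, and the dashed line the floor of 104. Ptbp1 is lowest in GFP+++ (2134) and Celf4 is highest in GFP+ (2670).

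On their brightest probe sets, Ptbp1 was lowest in the brightest fraction, while Ptbp2 was nearly level over the fractions. Ptbp1 had a signal of 2134 in GFP+++, with 2865 in GFP+ and 3686 in GFP-. Its signal in GFP+++ was thus 1.73-fold below that in GFP- (log2 fold -0.79), and its signal in GFP+ 1.29-fold below it (-0.36). With arrays scaled by their median the first of these was -0.37, where the median of all genes lay at 0.42. Ptbp2 had 4114 in GFP+++, with 3356 in GFP+ and 3603 in GFP-, which is 1.14-fold higher in GFP+++ than in GFP- (0.19). Ptbp1 thus had GFP+ in between, and Ptbp2 had its highest signal in GFP+++. Neither gene passed 2-fold, and Ptbp2 lay closer to 0 than the spread between probe sets of a gene, an SD of 0.30 on the log2 scale over 4633 genes.

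The second probe sets of both genes gave the same directions against GFP- except for Ptbp2 in GFP+. For Ptbp1 it had 224 in GFP+++, 206 in GFP+ and 294 in GFP- (log2 fold of GFP+++ over GFP- of -0.39). It put GFP+++ slightly above GFP+ (0.12), against -0.42 for the bright one. For Ptbp2 it had 419 in GFP+++, 304 in GFP+ and 191 in GFP-, 2.20-fold higher in GFP+++ than in GFP-. That is the only probe set of the 27 to pass 2-fold upwards in this comparison, where 1.84% of all compared probe sets did.

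The unequal change of the genes can be read without comparing signals between them, as the log2 fold of Ptbp2 minus that of Ptbp1. Between GFP+++ and GFP- this difference was 0.98 with the brightest probe sets, a 1.97-fold shift. It ran from 0.58 to 1.92 over the 4 pairs of probe sets above the floor. The log2 folds behind the 0.98 were 0.19 for Ptbp2 and -0.79 for Ptbp1, so most of it came from Ptbp1. This split depends on the Ptbp2 probe set read. The dimmer one lay at 1.14, so in its pairs, with Ptbp1 at -0.79 or -0.39, most of the shift came from Ptbp2. Whether the genes exchange within cells was not tested. Between GFP+ and GFP- the difference was 0.26 (0.26 to 1.18 over the pairs), and between GFP+++ and GFP+ it was 0.72 (0.17 to 0.89). The shift lay above 0 for all 12 values, but these share probe sets and arrays and so are not independent of each other. The lowest, 0.17, lay within the SD of 0.30 between probe sets of a gene for GFP+++ against GFP+. That SD is of a single fold, and a difference of 2 folds spreads more widely. The 0.34 of another pair in this comparison is therefore not clearly beyond the spread. The same holds for the 0.26 of GFP+ against GFP-, where the SD was 0.24. Any scaling factor of an array cancels in the shift. Quantile normalization, which is no single factor, gave 0.95 for GFP+++ against GFP-.

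The stretches before the start sites of this pair are shown because the switch is between these genes. They are the 250 bases upstream of each RefSeq start in GRCm38.p6, on the gene's strand, for Ptbp1 at chr10:79854182-79854431 (plus strand) and for Ptbp2 at chr3:119783389-119783638 (minus strand). Capitals mark E-boxes, CANNTG, the letters bound by basic helix-loop-helix factors as a class, and binding by any one factor was not tested. The motif reads the same on both strands.
Ptbp1: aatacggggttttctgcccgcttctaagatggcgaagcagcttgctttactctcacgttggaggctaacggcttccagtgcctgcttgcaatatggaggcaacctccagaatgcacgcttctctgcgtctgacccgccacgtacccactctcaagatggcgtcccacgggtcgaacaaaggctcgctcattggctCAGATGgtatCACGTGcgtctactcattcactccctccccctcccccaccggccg
Ptbp2: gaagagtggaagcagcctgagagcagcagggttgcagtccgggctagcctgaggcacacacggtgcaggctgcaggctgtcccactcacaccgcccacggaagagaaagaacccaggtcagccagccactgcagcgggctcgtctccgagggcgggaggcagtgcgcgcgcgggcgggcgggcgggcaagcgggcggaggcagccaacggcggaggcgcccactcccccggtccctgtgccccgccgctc

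The Ptbp1 stretch holds 2 E-boxes and the Ptbp2 stretch 0, and 66.2% of 32851 such stretches over all genes hold at least 1. Both are rich in CG pairs, with 17 for Ptbp1 and 23 for Ptbp2, where the median over all stretches is 6. Upstream stretches were read for 8 of the 10 genes.

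Of the genes placed around the Ptbp switch in other work, Rest, Ctdsp1 and Ctdspl were lower in GFP+++ as well, by more than Ptbp1. Rest, the repressor that silences neuronal genes outside neurons, gave 21.9 in GFP+++, under the floor, against 384 in GFP-, and so was at least 3.68-fold lower. A second probe set was at least 2.69-fold lower. In GFP+ Rest stood at 260, which is 1.48-fold below GFP-. Ctdsp1 and Ctdspl, small phosphatases that act with the REST complex, were 2.75-fold lower (237 in GFP+++, 399 in GFP+, 651 in GFP-) and 3.28-fold lower (153, 336 and 501 in the same order). On their brightest probe sets these 3 genes ran in the order of Ptbp1, GFP+++ below GFP+ below GFP-.

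The other genes of this arm lay within 2-fold between GFP+++ and GFP-. Rcor1, the REST corepressor, was 1.48-fold higher in GFP+++ than in GFP- (6981 against 4715, with 3623 in GFP+), and its other probe sets were 1.88-fold and 1.66-fold higher. Rcor2 had the order of Ptbp1, at 448 in GFP+++, 545 in GFP+ and 627 in GFP-. The probe sets of Ctdsp2 disagreed: the brightest was 1.31-fold lower in GFP+++ than in GFP-, and the other probe sets were higher, with log2 folds of 0.58 and 0.84. Ago2 and Dicer1, which carry and cut microRNAs, lay at log2 folds of -0.06 and 0.03. The miR-124 host transcript Mir124a-1hg lay under the floor on all arrays (8.46 in GFP+++, 31.5 in GFP-). Of the 8 genes of the arm above the floor, 3 were at least 2-fold lower and 0 at least 2-fold higher in GFP+++, where 12.4% of all 12235 compared genes were lower and 1.92% higher. A floor at the 65th percentile left 1 of the 3 past 2-fold, Ctdsp1, and the median over probe sets left 2, Ctdsp1 and Ctdspl.

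**Figure D2:**
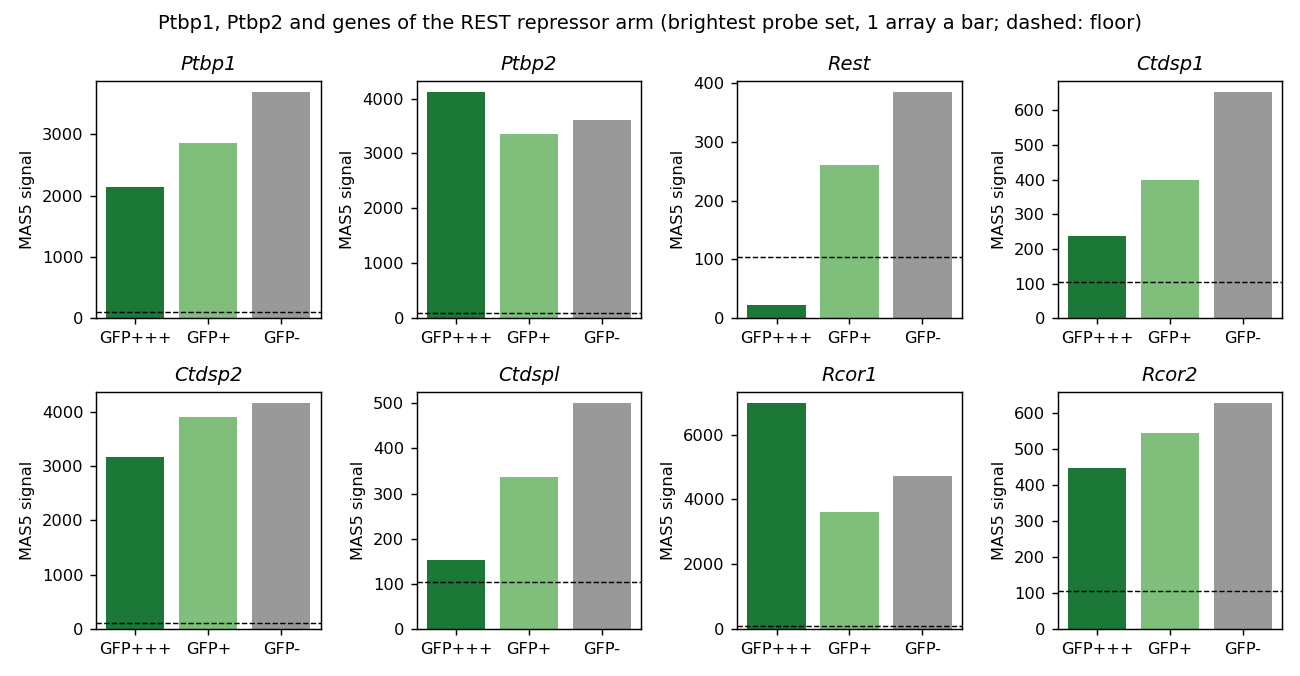
MAS5 signal (linear axis from 0, scaled to each gene) of the brightest probe set of Ptbp1, Ptbp2 and 6 genes of the REST arm on the GFP+++, GFP+ and GFP- arrays, 1 array a bar. The dashed line is the floor of 104. Rest, Ctdsp1 and Ctdspl step down towards GFP+++ as Ptbp1 does, while Ptbp2 and Rcor1 are highest there.

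Less signal in a sorted fraction can come from fewer cells of a type or from less RNA per cell, and these cannot be told apart here. Markers of other cells moved along with Ptbp1 and Rest. In GFP+++ against GFP-, the summed signal of 9 cell cycle markers was 2.51-fold lower, with 8 of the 9 at least 2-fold lower. The sum of fibroblast markers was 17.2-fold lower (6 of 6 genes past 2-fold). Other lists held markers under the floor in GFP+++, so with these raised to the floor their folds are lower bounds. Sums were at least 20.5-fold lower for immune cell markers (9 of 9 genes), at least 5.65-fold for Bowman glands (6 of 6), at least 5.26-fold for ensheathing glia (4 of 4), at least 3.93-fold for horizontal basal cells (4 of 5) and at least 1.42-fold for endothelial cells (0 of 4). Sustentacular cell markers summed to 42420 in GFP+++ and 76190 in GFP- (4 of 7 genes at least 2-fold lower). Of all compared genes 12.4% were lower by as much. Of the immune markers, 5 of 9 lay under the floor in GFP+++, as did 4 of 5 for horizontal basal cells, Trp63 among them. The part of these cells in the Ptbp1 and Rest values was not tested.

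In sum, immature OSN markers were 1.38-fold higher in GFP+++ than in GFP- (83950 against 60740, with 54470 in GFP+), with Nhlh1 and Crmp1 past 2-fold. Mature OSN markers summed to 57760 in GFP+++, 84540 in GFP+ and 78090 in GFP-. All 10 immature and all 9 mature OSN markers read lay above the floor on every array, so no array lacks neuronal transcripts, and a neuronal gene is compared here between mixtures. Markers of neuronal progenitors were 1.36-fold lower in sum in GFP+++ than in GFP-, but they differed among themselves. Kit had a log2 fold of -1.87, Neurod1 of -0.71 and Hes6 of -0.17, while Neurog1 lay above 0 at 0.31.

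**Figure D3:**
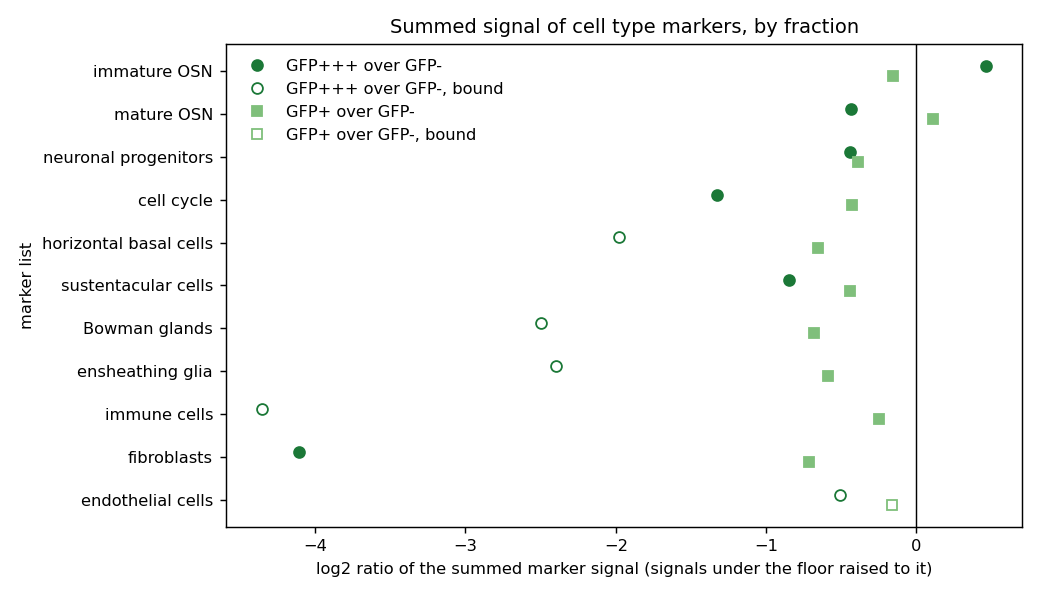
Log2 ratio of the summed signal of cell type markers, GFP+++ over GFP- (circles) and GFP+ over GFP- (squares), 1 array a fraction, with signals under the floor raised to it. Open symbols are bounds, since a marker lay under the floor in the dimmer fraction. The only list to the right of 0 for GFP+++ is that of immature OSN (a ratio of 1.38), and the only one for GFP+ is that of mature OSN (1.08). Fibroblast markers lie far left for GFP+++ (a ratio of 0.0581), and immune cell markers are a bound there.

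The ELAV-like genes, whose proteins are the classic Hu antigens of neurons, were bright on all arrays and slightly brighter in GFP+++. Elavl3 (HuC) had 6389 in GFP+++, with 5148 in GFP+ and 5314 in GFP-, a log2 fold of 0.27 of GFP+++ over GFP-, and its 3 probe sets ran from 0.21 to 0.42. Elavl2 (HuB) gave 4867, 3443 and 4101 in the same order (0.25), with 3 of 4 probe sets above 0 and a range of -0.04 to 0.49. Elavl4 (HuD) gave 5116, 3661 and 4210 (0.28), but -0.08 with quantile normalization, which made another probe set the brightest. On their brightest probe sets all 3 genes lay within the spread between probe sets against GFP-, an SD of 0.30. Against GFP+ they lay at 0.50 (Elavl2), 0.31 (Elavl3) and 0.48 (Elavl4), beyond the SD of 0.30 for that comparison. There Elavl4 turned to -0.08 with quantile normalization, and Elavl2 to -0.08 with the median over its probe sets. Elavl1 (HuR), the member of the family made in all tissues, stood at 1056 in GFP+++, 1111 in GFP+ and 1008 in GFP- on its brightest probe set, but its probe sets disagreed. Another had 268 in GFP+++, 791 in GFP+ and 1223 in GFP-. With the median over probe sets Elavl1 was past 2-fold lower in GFP+++ than in GFP- and than in GFP+.

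The Musashi genes, known from neural stem and progenitor cells, were not lower in GFP+++ on their brightest probe sets. Msi1 had 4778 in GFP+++, with 4429 in GFP+ and 4094 in GFP- (log2 fold of 0.22 over GFP-), and a far dimmer probe set near the floor gave -0.06. Msi2 gave 4229, 3148 and 3391 on its brightest probe set (0.32 over GFP- and 0.43 over GFP+). Its other probe sets parted from this one. The probe set farthest from it had 828 in GFP+++, with 1689 in GFP+ and 1224 in GFP-, a log2 fold of -0.56 over GFP- and of -1.03 over GFP+. Another gave 889, 1461 and 936 in the same order (-0.72 over GFP+). In all, 3 of 7 Msi2 probe sets lay above 0 and 4 below it in GFP+++ against GFP-, so a direction for the gene depends on the probe set read. Which transcripts these probe sets bind was not tested.

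Celf4, a Celf protein that regulates splicing and stability of messages in neurons, was the member that stood out in GFP+. It had 1741 in GFP+++, with 2670 in GFP+ and 1275 in GFP-. The other probe sets gave 890 and 1048 in GFP+++, 1586 and 1596 in GFP+, and 869 and 853 in GFP-. All 3 therefore put GFP+ highest, and GFP+++ was nearer to GFP- than to GFP+ on each. Its brightest probe set was 2.09-fold higher in GFP+ than in GFP- (log2 fold 1.07), above 99.5% of the compared genes, and the others lay at 0.87 and 0.90. With the median over probe sets the gene lay at 0.88, under 2-fold. Celf4 was the only one of the 9 genes past 2-fold in this comparison and 0 were lower by as much, where 0.607% of 12196 genes were higher and 0.804% lower. Over probe sets it was also 1 of 27 higher and 0 lower, where 0.582% of probe sets were higher and 0.706% lower. In GFP+++ it was 1.53-fold lower than in GFP+.

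Srrm4, which promotes tiny neuronal exons and is known to switch Rest to a shortened form, was brightest in GFP+++. The signal was 912 in GFP+++, against 552 in GFP+ and 562 in GFP-. GFP+++ stood apart and the other fractions were level. It was 1.62-fold higher in GFP+++ than in GFP- (log2 fold 0.70), above 94.0% of the compared genes, and 1.65-fold higher than in GFP+ (0.73). Only 1 of its 3 probe sets lay above the floor, so no other probe set checks this value. With arrays scaled by their median the fold over GFP- was 1.11, past 2-fold, while the median of all genes then lay at 0.42.

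**Figure D4:**
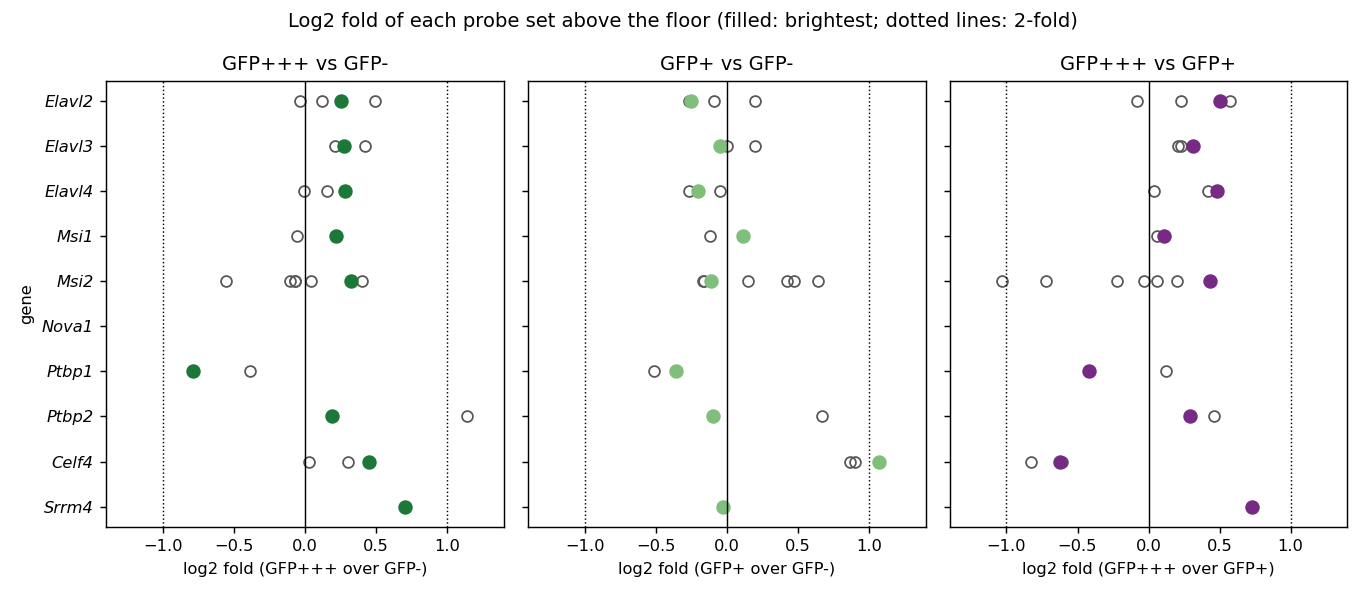
Log2 folds of the 27 probe sets above the floor, by gene, for GFP+++ over GFP-, GFP+ over GFP- and GFP+++ over GFP+. Filled points are the brightest probe set of a gene, open points the others, and dotted lines mark 2-fold. Celf4 lies at 1.07 in GFP+ over GFP-, Ptbp1 at -0.79 in GFP+++ over GFP-, and the Msi2 points spread from -1.03 to 0.43 in GFP+++ over GFP+.

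As a group, 8 of the 9 genes compared lay above 0 in GFP+++ against GFP-, all but Ptbp1, with a median log2 fold of 0.27. Over all genes 6203 of 12235 lay above 0 and the median was 0.01. With median scaling these medians were 0.68 and 0.42, and with quantile normalization 0.15 and 0.05, with 7 of 9 above 0. With the median over probe sets they were 0.16 and 0.03, with 6 of 8 genes above 0. Of the 9 genes 0 passed 2-fold (1, Srrm4, with median scaling), where 1.92% of genes were higher and 12.4% lower, and of 27 probe sets 1 was higher and 0 lower, where 10.1% of probe sets were lower. On the brightest probe sets, the folds of 4 genes were larger than the spread between probe sets: Msi2, Ptbp1, Celf4 and Srrm4. The 7 Msi2 probe sets above the floor ran from -0.56 to 0.40, so its 0.32 depends on the probe set read.

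In GFP+ against GFP-, 2 of the 9 genes lay above 0, Msi1 and Celf4, and 6 with median scaling. The median was -0.10, where that of all genes was -0.01, and with median scaling 0.04 and 0.13. With the median over probe sets 4 of 8 genes lay above 0, with a median of 0.04. On the brightest probe sets, Elavl2 (-0.25), Ptbp1 (-0.36) and Celf4 lay beyond the SD of 0.24. In GFP+++ against GFP+, 7 of 9 lay above 0, with a median of 0.31 where that of all genes was -0.02, and Ptbp1 and Celf4 (-0.62) lay below 0. With quantile normalization it was 5 of 9, and with the median over probe sets 6 of 8, with a median of 0.10. Of 32 general splicing factors, 27 also lay above 0 in the same comparison, with a median of 0.23. Again 0 of the 9 genes passed 2-fold (1, Srrm4, with median scaling), where 0.985% of 11881 genes were higher and 9.34% lower. Of the probe sets 0 were higher and 1 lower, the Msi2 one at -1.03, where 1.09% were higher and 7.73% lower. The 3 comparisons share arrays, so their values are not independent of each other.

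Measured by the distance between centred log2 signals over the 3 arrays, Elavl2 and Elavl4 were 0.04 apart and Elavl3 and Ptbp2 0.05, while Ptbp1 lay at least 0.72 and Celf4 at least 0.70 from every other member. Of all genes above the floor on all arrays (10458), Dok3, Ankrd27 and Trim25 were nearest to Ptbp1, and Pdcd7, Tex10 and Bex3 to Ptbp2. Within a distance of 0.1 lay 104 genes for Ptbp1 and 660 for Ptbp2, so over 3 arrays such a likeness is common.

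Other regulators of neuronal and tissue splicing had a median log2 fold of 0.04 in GFP+++ against GFP-. Among 18 compared no gene was past 2-fold, where 1.92% of all genes were higher and 12.4% lower. With the median over probe sets Elavl1 passed 2-fold downwards, and with a floor at the 35th percentile Celf6 passed it upwards and Khdrbs2 downwards. The bright members Celf1 (0.02), Ptbp3 (0.16), Mbnl2 (0.34) and Khdrbs1 (-0.04) lay near 0. Celf2 (956 in GFP+++, 1442 in GFP+ and 1823 in GFP-) was lowest at -0.93 and Rbfox2 (703, 486 and 472) highest at 0.58. Rbfox3, the NeuN antigen of many mature neurons, was dim at 141 in GFP+++, 146 in GFP+ and 206 in GFP-. Celf3 was 2.01-fold lower in GFP+ than in GFP- (520 against 1043), at the edge of 2-fold, with 718 in GFP+++, and thus ran opposite to Celf4 there; with median scaling it did not pass 2-fold.

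Among 16 proteins of RNA transport and local translation the median log2 fold in GFP+++ against GFP- was 0.00. Of these 0 passed 2-fold, where 1.92% of all genes passed it upwards and 12.4% downwards. With median scaling Cpeb1 passed it upwards and the list median was 0.42, as was that of all genes, and with the median over probe sets Igf2bp3 passed it downwards. Caprin1 (-0.32), Cpeb4 (0.18), Cirbp (0.39) and Syncrip (0.35) were the brightest, and Cpeb1, which controls polyadenylation of stored messages, was highest at 0.93 (2202 in GFP+++, 1244 in GFP+ and 1153 in GFP-). General splicing factors lay in a narrow band of -0.35 (Srsf5) to 0.47 (Tra2a) over 32 genes, with a median of -0.01 and 0 past 2-fold. Sf1 (-0.24), Hnrnpab (-0.09), Hnrnpk (-0.10) and Hnrnpa2b1 (-0.01) were the brightest. Against GFP- their median in GFP+ was -0.20, with 6 of 32 above 0.

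RNA-binding proteins known from epithelial and other non-neuronal cells were mostly lower in GFP+++. The median log2 fold was -1.81 in GFP+++ against GFP-, and 6 of 9 compared genes passed 2-fold downwards, where 12.4% of all genes did. With median scaling 5 of the 9 did, without Rbpms. Zfp36, Zfp36l1 and Zfp36l2, which bind AU-rich stretches and speed message decay, were 4.16-fold, 3.55-fold and 4.18-fold lower. Zfp36l1 had 933 in GFP+++, with 3088 in GFP+ and 3315 in GFP-, which puts GFP+ close to GFP- on its brightest probe set. Its other probe set had 109.8, 228 and 502 in the same order, 2.20-fold lower in GFP+ than in GFP-. Rbm47, an epithelial splicing and editing cofactor, was 4.21-fold lower, Rbms3 3.51-fold and Rbpms, known from smooth muscle, 2.22-fold. Esrp1, the epithelial splicing regulator, was not lower (3959 in GFP+++, 2993 in GFP+ and 3395 in GFP-), nor was Rbms1 (0.33). Esrp2 lay at -0.33 on its brightest probe set and at -1.82 on the other. In GFP+ against GFP- none of the 9 passed 2-fold on its brightest probe set, where 0.607% of all genes were higher and 0.804% lower. The median was -0.27. These genes moved with the marker sums of non-neuronal cells given above, whose part in them was not tested.

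**Figure D5:**
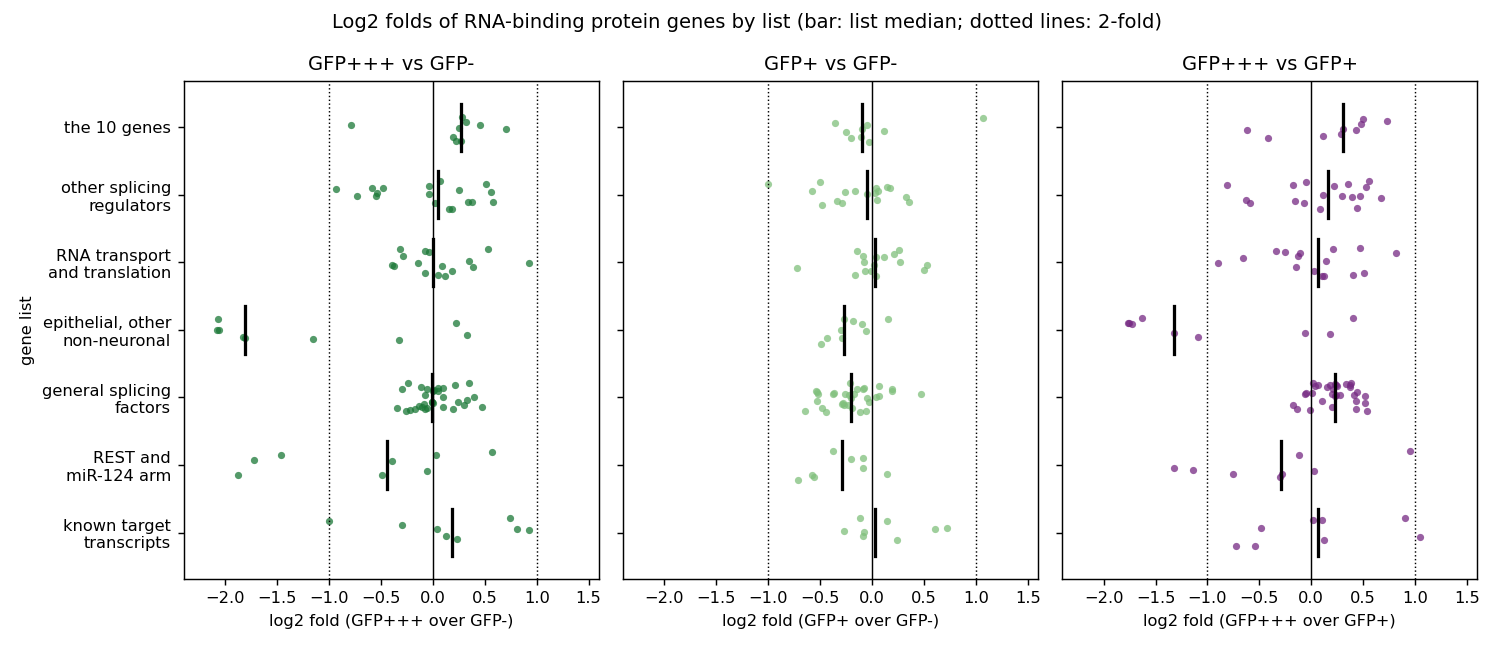
Log2 folds of the 9 members compared (top line of points) and of 6 lists of related genes for GFP+++ over GFP-, GFP+ over GFP- and GFP+++ over GFP+, 1 point a gene, with the list median as a bar and 2-fold as dotted lines. In GFP+++ over GFP- general splicing factors stay between -0.35 and 0.47, while the median of the non-neuronal list is -1.81.

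Transcripts known as targets of these proteins were compared for level alone, since the deposited values give no exon inclusion. Of 8 above the floor, 6 lay above 0 in GFP+++ against GFP-, with a median of 0.18. Of the 8, 0 passed 2-fold, where 1.92% of all genes were higher and 12.4% lower. With median scaling 3 passed it: Agrn, Cdkn1a and Gap43. Gap43, the growth cone protein whose message HuD steadies, had 11230 in GFP+++, with 6006 in GFP+ and 6395 in GFP- (0.81). Agrn, whose exons Nova proteins regulate, gave 3117, 1507 and 1639 in the same order, and was 2.07-fold higher in GFP+++ than in GFP+. Cdkn1a, a cell cycle inhibitor, was high in both fluorescent fractions (5465 in GFP+++, 5395 in GFP+ and 3280 in GFP-). Numb, whose translation Msi1 represses, lay at -0.30, Kif1b at 0.23 and Gabbr1 at 0.13. Dlg4, whose transcript Ptbp proteins destabilise by exon skipping, had a signal of 248.9 in GFP+++, with 413 in GFP+ and 498 in GFP-, just inside 2-fold.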

How the data were processed

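The authors deposited 1 signal intensity for each of 45101 probe sets and array, on a linear scale, made with MAS5 per the submitters' processing notes with no version named there. On every array the deposited intensities had a 2% trimmed mean of 500.0, and median signals were 88.2 in GFP+++, 107 in GFP+ and 118 in GFP-. A single factor an array leaves differences in shape between arrays in place, and without detection calls an absent transcript still has a positive value.

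Arrays were set to a common trimmed mean, values under the pooled median of 104 were raised to it, and log2 ratios were taken (Python 3.11.15, pandas 2.3.3). A fold with 1 array under the floor is a lower bound. Of the probe sets, 34958 carried 1 gene symbol in the platform annotation, 932 several and 9211 none; 34754 were matched to RefSeq of GRCm38.p6 through Entrez identifiers, which changed 0 symbols. A gene was read from its brightest probe set and counted at 2-fold or more. The steps were tested on simulated arrays with equal noise, a single factor between arrays and changes placed in bright genes alone. Changes near the floor and differences in shape between arrays were not simulated. The number of arrays limits the precision.

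Members, lists and markers were chosen with earlier results of these data known. Of each list up to 4 genes past 2-fold and up to 4 other bright genes were named; Elavl1, Celf2, Celf6, Khdrbs2, Igf2bp3, Rbfox2, Rbfox3, Cpeb1, Srsf5, Tra2a, Zfp36, Rbpms, Rcor2, Mir124a-1hg, Numb, Dlg4 and the markers Nhlh1, Crmp1 and Trp63 were named beyond this, after their values were seen. The markers of neuronal progenitors were also named after their values were seen. The 6 alternatives were median scaling, quantile normalization, floors at the 65th and 35th percentile, the median over probe sets, and leaving out _x_at and _s_at probe sets.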

Additional observations from a re-analysis of the deposited data

How the results depend on the processing

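No paired analysis was possible because each fraction has 1 array; no array could be left out for the same reason. Of 159 log2 folds of members under the 6 alternatives, 143 moved by less than the spread between probe sets and 16 by more, 9 of these with median scaling, which shifts every gene; 15 turned sign, all of them among folds within 2-fold. Ptbp1 in GFP+++ against GFP- lay at -0.37 with median scaling and at -0.39 with the median over probe sets. With that median over probe sets the difference between Ptbp2 and Ptbp1 was 0.65 for GFP+++ against GFP- and 0.19 for GFP+++ against GFP+; the other settings moved it by less than the spread between probe sets. Counts over all genes moved with scaling and floor. For GFP+++ against GFP- 235 genes were 2-fold or more higher, but 1129 with median scaling, 367 with quantile normalization and 152 with the 65th percentile floor; 1522 were lower (1045 with median scaling), but 746 with the 65th and 2335 with the 35th percentile floor. For GFP+ against GFP- 74 were higher, but 131 with median scaling, 40 with the 65th and 118 with the 35th percentile floor, and 98 lower, but 46, 38 and 220 under the same settings. For GFP+++ against GFP+ 117 were higher, but 416 with median scaling, 179 with quantile normalization and 71 with the 65th percentile floor, and 1110 lower (767 with median scaling), but 526 and 1814 with the 65th and 35th. With median scaling the median log2 fold of all genes was 0.42 for GFP+++ against GFP-, 0.13 for GFP+ against GFP- and 0.25 for GFP+++ against GFP+. The causes of these moves were not tested. Low signal limits Nova1, the second probe sets of Ptbp1 and Ptbp2, and Srrm4, which rests on 1 probe set.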
